A study of Solanum lycopersicum with 9 samples.

Results

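The phytochrome-interacting factors (PIFs) of tomato are a family of 8 genes, and their messenger RNA was followed in leaves whose neighbours had been darkened or cut off. The genes were chosen by identifier, as PIF1a (Solyc09g063010), PIF1b (Solyc06g008030), PIF3 (Solyc01g102300), PIF4 (Solyc07g043580), PIF7a (Solyc03g115540), PIF7b (Solyc06g069600), PIF8a (Solyc01g090790) and PIF8b (Solyc10g018510). The names come from the list that defined the set, since neither the count table nor the reference gene table pairs these identifiers with names. All 8 of the 8 listed genes were among the 23195 genes of the table, and all 8 passed the filter on low counts. By the convention of tomato identifiers, PIF3 and PIF8a lie on chromosome 1, PIF7a on 3, PIF1b and PIF7b on 6, PIF4 on 7, PIF1a on 9 and PIF8b on 10.

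The plants were wild-type Solanum lycopersicum of the processing cultivar M82, raised for 4 weeks in a growth chamber and then potted in a greenhouse at 28 °C by day and 20 °C by night. In the shading group, aluminium foil covered every leaf but the youngest fully expanded one, counted as leaf 4 or 5 from the top. In the defoliation group, all leaves but the one to be measured were cut off near the stem. Control plants kept all leaves uncovered, and each group had 3 biological replicates. Foil and cutting were applied 1 week past first flowering, and both lower the ratio of sugar-exporting to sugar-importing tissue. The RNA came from the leaf left uncovered or attached, so in neither treatment was the measured leaf itself darkened. Labels of the treated libraries carry a number, 48, without a unit, which control labels lack, so what it marks and the treatments cannot be told apart in a comparison with control. Only 1 cultivar was used, and no source used here says whether a library held 1 plant or several.

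PIFs are basic helix-loop-helix transcription factors that bind the light-activated form of the red and far-red receptors, the phytochromes. For many PIFs, though not all, binding in light leads to phosphorylation and degradation of the protein. In darkness or under shade rich in far-red light such PIFs persist, repress genes for chlorophyll, carotenoids and chloroplasts, and promote elongation growth. Because much of this control acts on the protein, transcript counts describe the supply of PIF messenger RNA and not PIF activity.

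Total counts per library ranged from 17617138 to 29758980 in shading, from 26058491 to 31012772 in defoliation and from 25202105 to 27988818 in control leaves. Shading replicate 3 was the shallowest library and held 1657 genes at 0, against 334 to 711 in the others. Levels are given as CPM, counts scaled to one library size by the TMM method, and 3 counts equalled 0.0931 CPM in the deepest library and 0.194 CPM in the shallowest. CPM is not corrected for transcript length, so PIF genes are not ranked against each other. The 5 loci listed as leaf mesophyll markers (small Rubisco subunits, Rubisco activase and plastocyanin) were abundant in all libraries, with summed levels of 92907 to 110308 CPM in shading, 60010 to 76542 CPM in defoliation and 53193 to 66223 CPM in control leaves. The locus listed for phloem (a sucrose transporter) ranged from 335 to 425 CPM in shading, 353 to 442 CPM in defoliation and 326 to 423 CPM in control leaves. A floral locus stayed between 0.775 and 1.68 CPM in all libraries, and 2 loci listed for ripening fruit were not among the rows used. These marker names are from published tomato nomenclature and could not be checked in the files.

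PIF3 had the largest fold change of the family in both treatments, a level 4.95-fold lower under shading and 4.00-fold lower after defoliation than in control leaves. In Arabidopsis, PIF3 represses chlorophyll and chloroplast genes in darkness. Its level was 10.8, 14.8 and 12.3 CPM in the 3 shading libraries and 12.0, 15.3 and 19.6 CPM in the 3 defoliation libraries, against 73.4, 58.7 and 55.7 CPM in the 3 control libraries. Even the highest treated library, defoliation replicate 3, stood far below the lowest control library.

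PIF3 fell after defoliation to 15.6 ± 3.79 CPM, against 62.6 ± 9.48 CPM in control leaves (SD, n = 3 each). The log2 fold change was -2.00 ± 0.20 (SE, 95% interval -2.44 to -1.56) (edgeR quasi-likelihood test, Benjamini-Hochberg adjusted p = 0.000367). Under shading PIF3 fell to 12.6 ± 2.05 CPM, with a log2 fold change against control of -2.31 ± 0.20 (SE, 95% interval -2.75 to -1.86; edgeR adjusted p = 0.000265). Only 1.07% of all tested genes had a lower log2 fold change after defoliation, and 0.972% under shading. PIF3 kept both calls in all 18 alternative analyses of each comparison, with adjusted p between 9.05e-18 and 0.00250 for defoliation and between 1.24e-22 and 0.00230 for shading.

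In bulk leaf RNA, fewer cells that express a gene and less of its RNA per cell cannot be told apart. The summed leaf markers, given above, were higher in every shading library than in any control library, and those of defoliation and control leaves overlapped. Taken singly, 4 of the 5 marker loci rose under shading, and 3 of 5 rose after defoliation with no overlap with control, where 16.0% and 18.9% of all tested genes rose under shading and after defoliation. After defoliation these were 2 loci listed as small Rubisco subunits (RBCS, second, 2.37-fold and RBCS, first, 1.59-fold higher; edgeR adjusted p = 0.000529 and 0.00673) and plastocyanin (1.53-fold higher; edgeR adjusted p = 0.0201). After defoliation the other 2 marker loci did not pass and overlapped control. The small Rubisco subunit locus Solyc02g085950.3 averaged 26409 CPM, against 25435 CPM in control leaves (log2 fold change 0.05, edgeR adjusted p = 0.832). Rubisco activase averaged 19592 CPM, against 21111 CPM in control leaves (log2 fold change -0.11, edgeR adjusted p = 0.596). Under shading only Rubisco activase did not pass (log2 fold change 0.25, edgeR adjusted p = 0.209). The same limit holds for the marker loci, so their rise is no measure of how many leaf cells were sampled. The part of the leaf markers in the PIF results was not tested.

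**Figure D1:**
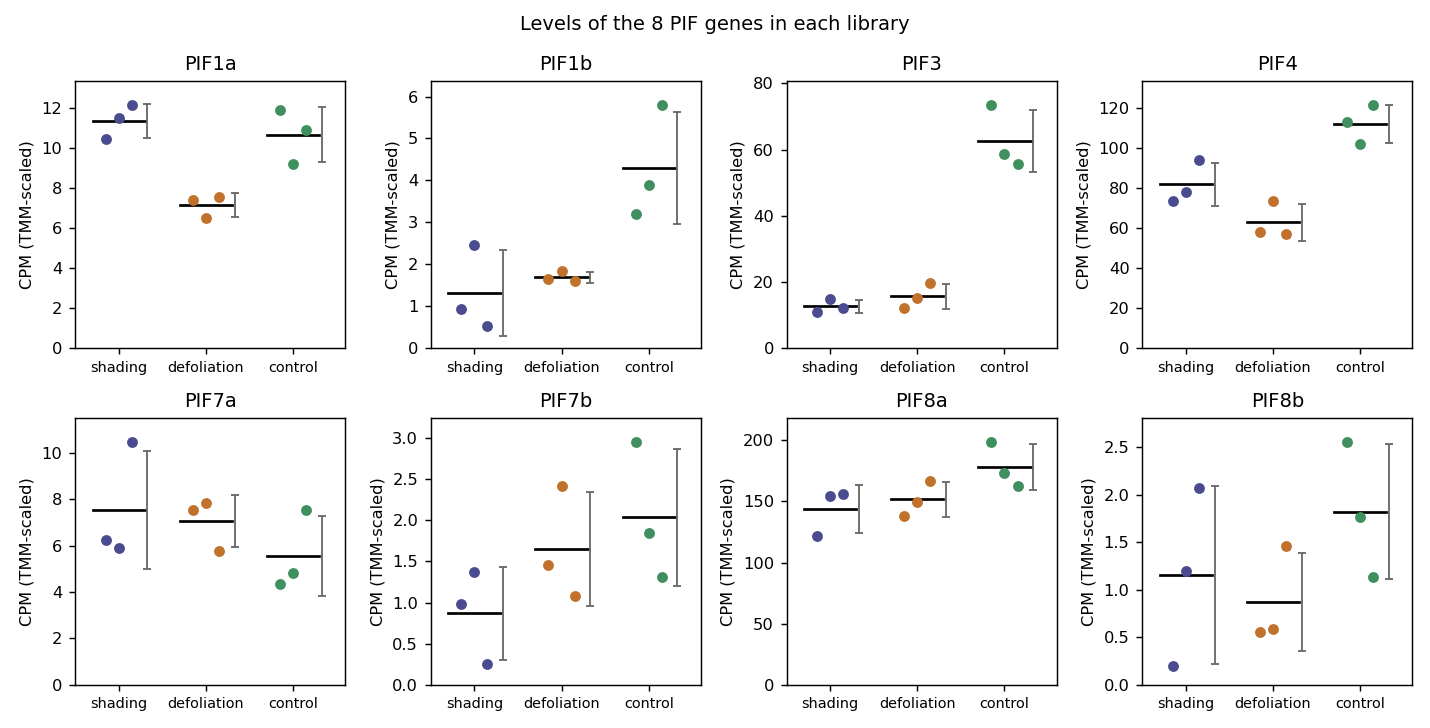
CPM of each PIF gene (vertical axes, from 0) in the shading, defoliation and control libraries; points are replicates 1 to 3 from left to right, black lines group means and grey bars 1 SD (n = 3). For PIF3, PIF4 and PIF1b all 6 treated libraries lie below all 3 control libraries, while the groups overlap for PIF7a, PIF7b and PIF8b.

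PIF4 also fell in both treatments, by less than PIF3. Arabidopsis PIF4 promotes elongation growth in shade and warmth. The shading libraries held 73.4, 78.1 and 94.0 CPM and the defoliation libraries 57.9, 73.5 and 57.3 CPM, against 113, 102 and 121 CPM in the control libraries. No treated library reached the lowest control library, and the shading and defoliation values overlapped.

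After defoliation PIF4 averaged 62.9 ± 9.18 CPM, against 112 ± 9.63 CPM in control leaves (SD, n = 3 each), a log2 fold change of -0.84 ± 0.15 (SE, 95% interval -1.16 to -0.51; edgeR adjusted p = 0.00203) and a 1.78-fold lower level. That call held in all 18 alternative analyses. Under shading PIF4 averaged 81.8 ± 10.8 CPM, 1.37-fold lower than in control leaves (log2 fold change -0.46 ± 0.14 SE, 95% interval -0.78 to -0.14, edgeR adjusted p = 0.0372). The shading call was lost without control replicate 1, 2 or 3 (log2 fold changes -0.45, -0.49 and -0.40) and without shading replicate 1 or 2 (-0.38 and -0.42), where adjusted p lay between 0.0684 and 0.118.

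The PIF1 pair gave different calls. PIF1 in Arabidopsis restrains chlorophyll and carotenoid synthesis, and tomato PIF1a binds the promoter of a phytoene synthase gene of the carotenoid pathway. PIF1a held 10.4, 11.5 and 12.1 CPM in the shading libraries and 7.43, 6.49 and 7.54 CPM in the defoliation libraries, against 11.9, 9.18 and 10.9 CPM in the control libraries. The defoliation libraries lay below every other library, and the shading and control libraries overlapped.

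PIF1a fell after defoliation to 7.15 ± 0.579 CPM, against 10.7 ± 1.38 CPM in control leaves (SD, n = 3 each), with a log2 fold change of -0.58 ± 0.15 (SE, 95% interval -0.91 to -0.25; edgeR adjusted p = 0.0138) and a 1.49-fold lower level. The call was lost without control replicate 1 (-0.49, adjusted p = 0.0540) or defoliation replicate 2 (-0.51, adjusted p = 0.0513). Under shading its log2 fold change was 0.09 ± 0.15 (SE, 95% interval -0.24 to 0.42, edgeR adjusted p = 0.677). Shading compared directly with defoliation did not pass for PIF1a (edgeR adjusted p = 0.120).

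PIF1b, in contrast, was low in all treated libraries. It stood at 0.939, 2.47 and 0.517 CPM in the shading libraries and at 1.64, 1.83 and 1.59 CPM in the defoliation libraries, against 3.20, 3.88 and 5.79 CPM in the control libraries. These levels rest on 8 to 70 counts per library in shading, 44 to 59 in defoliation and 89 to 168 in control leaves. The shading libraries spread over a 4.78-fold range and the defoliation libraries over a 1.15-fold range.

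PIF1b fell to 1.31 ± 1.03 CPM under shading, against 4.29 ± 1.34 CPM in control leaves (SD, n = 3 each), a log2 fold change of -1.66 ± 0.47 (SE, 95% interval -2.70 to -0.63; edgeR adjusted p = 0.0228). Without shading replicate 2, the highest of the group, the log2 fold change was -2.51. The call was lost without shading replicate 1 (-1.46) or control replicate 3 (-1.38), and without the shallow shading replicate 3 it held (-1.32, adjusted p = 0.0476). After defoliation PIF1b averaged 1.69 ± 0.126 CPM, with a log2 fold change of -1.34 ± 0.45 (SE, 95% interval -2.35 to -0.33; edgeR adjusted p = 0.0435). Leaving out any 1 of the 3 control libraries (-1.51, -1.41 and -1.07) or of the 3 defoliation libraries (-1.32, -1.40 and -1.30) ended this call.

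The PIF7 and PIF8 genes did not pass the test in either treatment. Arabidopsis PIF7 drives much of the auxin response to shade. PIF7a stood at 6.22, 5.89 and 10.5 CPM in the shading libraries and at 7.54, 7.85 and 5.76 CPM in the defoliation libraries, against 4.35, 4.80 and 7.51 CPM in the control libraries. It had the highest log2 fold change of the family in both treatments, 0.43 ± 0.28 under shading (SE, 95% interval -0.20 to 1.05; edgeR adjusted p = 0.278) and 0.34 ± 0.28 after defoliation (SE, 95% interval -0.28 to 0.96; edgeR adjusted p = 0.372). Increases of up to 2.07-fold under shading and 1.94-fold after defoliation lie within the intervals.

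PIF7b averaged 0.871 ± 0.566 CPM under shading and 1.65 ± 0.691 CPM after defoliation, against 2.03 ± 0.837 CPM in control leaves (SD, n = 3 each). Its log2 fold change was -1.16 ± 0.53 for shading (SE, 95% interval -2.35 to 0.02; edgeR adjusted p = 0.126) and -0.30 ± 0.51 for defoliation (SE, 95% interval -1.43 to 0.83; edgeR adjusted p = 0.687). Shading replicate 3 held only 4 counts of PIF7b.

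PIF8a, whose Arabidopsis counterpart acts in far-red light responses, was well measured, with 2414 to 5517 counts per library. PIF8a stood at 121, 154 and 156 CPM in the shading libraries and at 138, 150 and 167 CPM in the defoliation libraries, against 199, 173 and 163 CPM in the control libraries. The shading libraries all lay below the control libraries, as for 23.2% of all tested genes, and the defoliation libraries overlapped them. The log2 fold change was -0.31 ± 0.14 for shading (SE, 95% interval -0.62 to 0.01; edgeR adjusted p = 0.127) and -0.23 ± 0.14 for defoliation (SE, 95% interval -0.55 to 0.08; edgeR adjusted p = 0.232). A fall of 2-fold or more lies outside both intervals.

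PIF8b was the least certain gene, with 5 to 34 counts per library in shading, 15 to 46 in defoliation and 33 to 71 in control leaves. Its levels were 0.196, 1.20 and 2.07 CPM in the shading libraries and 0.560, 0.590 and 1.46 CPM in the defoliation libraries, against 2.55, 1.77 and 1.14 CPM in the control libraries. The 95% interval of its log2 fold change ran from -2.22 to 0.82 for shading and from -2.57 to 0.46 for defoliation, so the counts are compatible with no change and with a 4-fold fall.

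**Figure D2:**
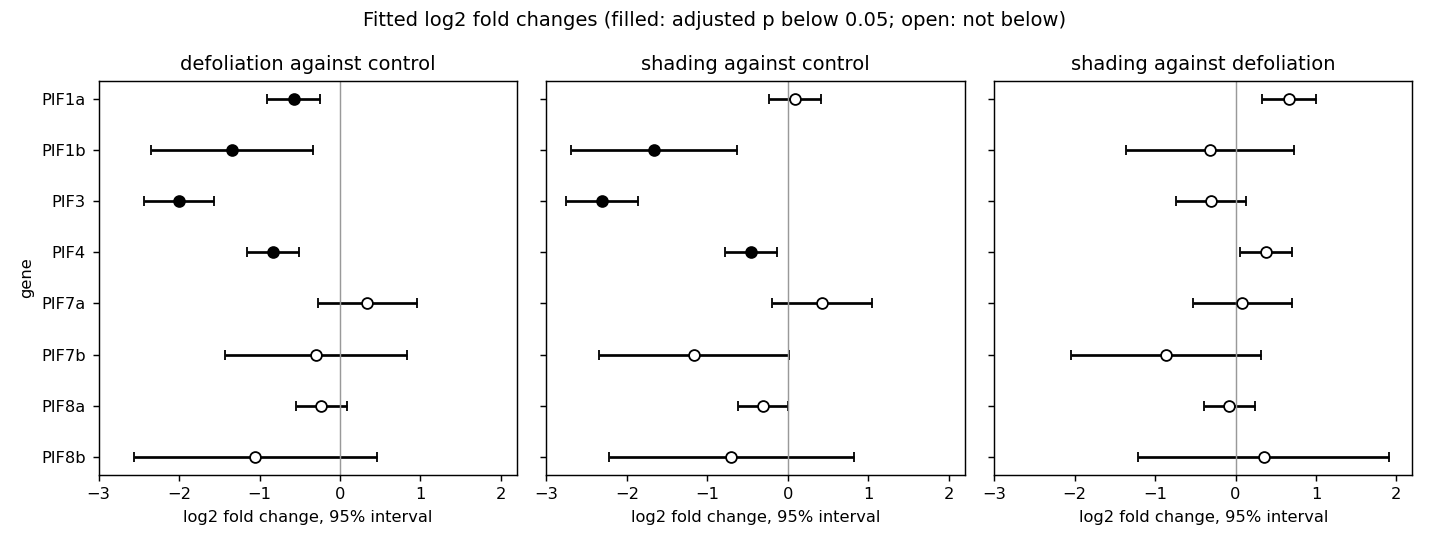
Fitted log2 fold change of each PIF gene (points) with its 95% interval (bars) in the 3 comparisons; filled points have an edgeR adjusted p below 0.05. PIF3 lies at -2.00 for defoliation and -2.31 for shading against control, and no gene is filled in the comparison of shading with defoliation.

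The spread between replicates was larger for the genes with few counts. The fitted biological coefficient of variation was 14.4% for PIF8a, 14.5% for PIF4, 15.3% for PIF1a and 18.1% for PIF3, and 25.3% for PIF7a, 38.4% for PIF1b, 42.8% for PIF7b and 56.5% for PIF8b. The value common to all tested genes was 23.0%.

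Taken gene by gene, each PIF either fell or did not pass in each treatment. After defoliation 4 of 8 fell (PIF1a, PIF1b, PIF3 and PIF4) and 0 rose, where 15.4% of all 20480 tested genes fell and 18.9% rose. Under shading 3 of 8 fell (PIF1b, PIF3 and PIF4) and 0 rose, where 14.2% of all tested genes fell and 16.0% rose. At an unadjusted edgeR p below 0.05 there were again 4 of 8 genes for defoliation and 3 of 8 for shading, none of them a rise. These counts are near the shares of all tested genes (44.9% and 41.6%, either direction) and so no result about the family. For rises, 8 genes are too few to tell 0 from the shares that rose. DESeq2 and limma-voom also called 0 rises. The median log2 fold change over the 8 genes was -0.71 for defoliation and -0.58 for shading, beside -0.02 over all tested genes in each comparison. Both comparisons use the same 3 control libraries, and the 8 genes were chosen with earlier results of these data known. The number that fell was 2 without control replicate 1 or defoliation replicate 2 in the defoliation comparison, and 1 without control replicate 3 or shading replicate 1 in the shading comparison, where PIF3 was the gene left.

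For 3 of the 8 genes (PIF1b, PIF3 and PIF4) all 6 treated libraries lay below all 3 control libraries, an order seen for 16.6% of all tested genes. For 0 of 8 genes did all treated libraries lie above the controls, an order seen for 17.9% of all tested genes, and 8 genes are too few to tell 0 from that share.

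**Figure D3:**
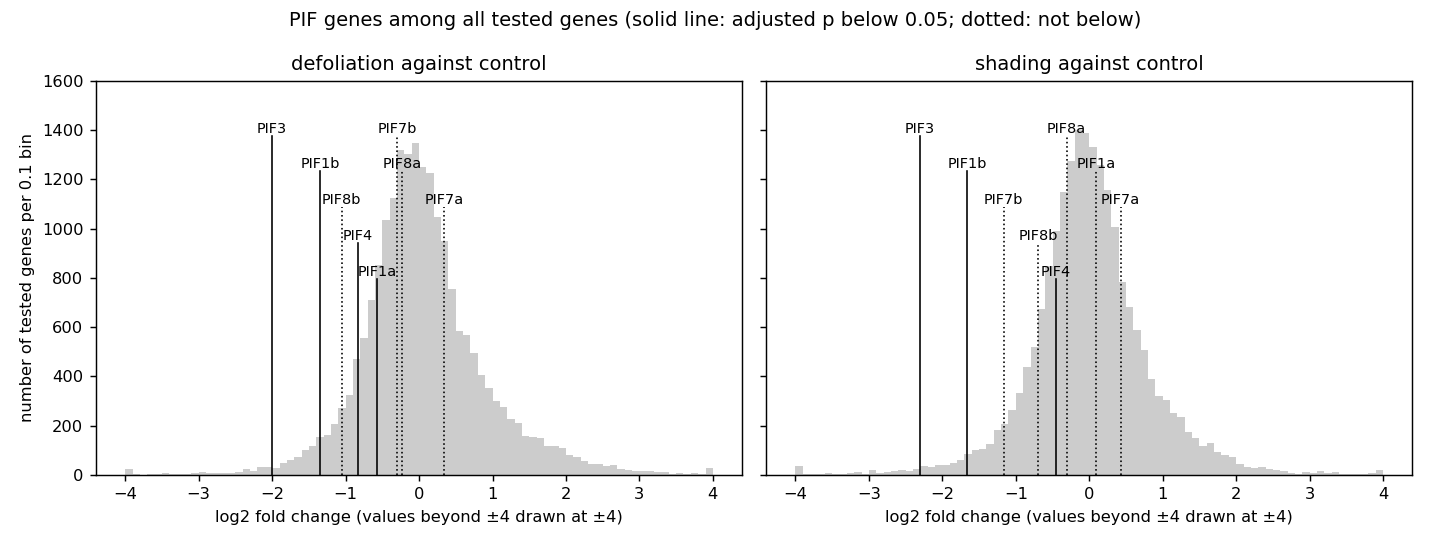
Number of tested genes (vertical axis) by log2 fold change (horizontal axis, bins of 0.1) for defoliation and for shading against control, with each PIF gene marked by a line, solid where the adjusted p is below 0.05. PIF3 lies in the lower tail in both panels, and PIF7a is the rightmost member in both.

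The summed level of the 8 genes was 224 to 288 CPM in the shading libraries and 227 to 261 CPM in the defoliation libraries, against 355 to 410 CPM in the control libraries, with no overlap between treated and control leaves. The mix of messages differed as well. PIF3 made up 4.86 ± 0.623% of the family's counts in shading and 6.24 ± 1.13% in defoliation, against 16.5 ± 1.36% in control leaves (SD, n = 3 each). PIF8a made up 55.2 ± 1.75% in shading and 61.0 ± 2.92% in defoliation, against 47.2 ± 2.41% in control leaves. Its own level was no higher, with means of 144 CPM in shading and 152 CPM in defoliation, against 178 CPM in control leaves. The share of PIF4 was 31.5 ± 2.15% in shading and 25.3 ± 3.31% in defoliation, against 29.8 ± 2.94% in control leaves. Each treatment overlapped control in the PIF4 share, and every shading library (29.0 to 32.7%) lay above every defoliation library (21.9 to 28.5%). PIF1a made up 4.38 ± 0.239% in shading and 2.89 ± 0.378% in defoliation, against 2.82 ± 0.208% in control leaves. The level of PIF1a in shading overlapped control. A smaller PIF3 share by itself raises the other shares, so a larger share is no sign of a higher level. These shares are of counts, not of molecules per length.

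**Figure D4:**
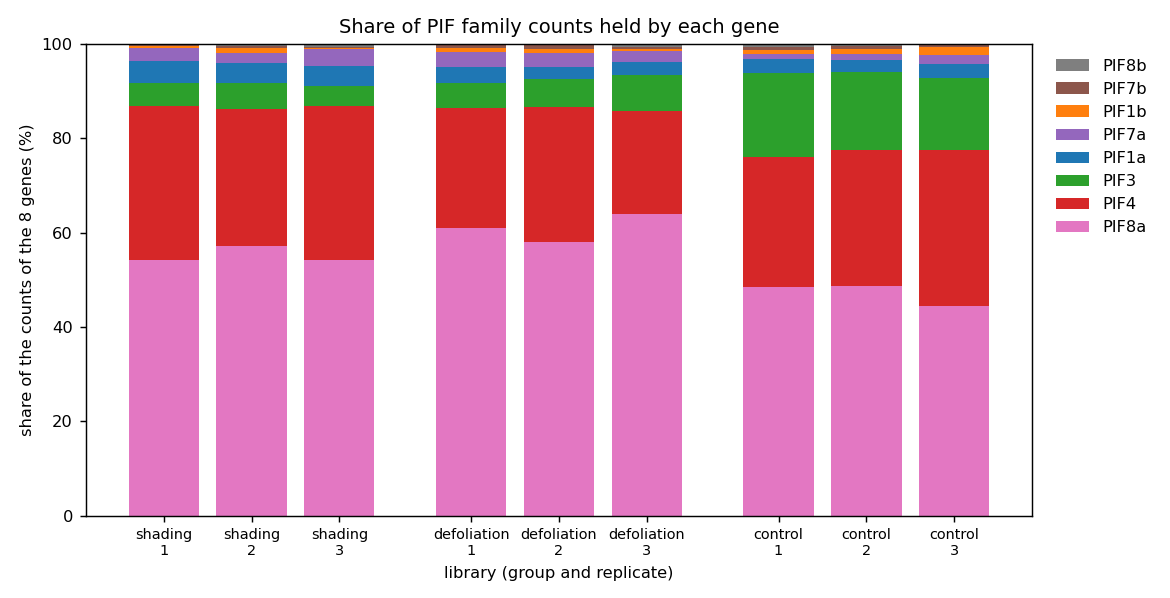
Share of the counts of the 8 PIF genes held by each gene (stacked bars, percent) in each library. The PIF3 band is between 4.27% and 7.49% in the 6 treated libraries and between 15.2% and 17.9% in the 3 control libraries.

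Ratios between members within a library do not depend on how libraries are scaled, and gene length cancels when the ratio is compared between groups. The ratio pairs with PIF3 were chosen after its values were seen and are given as descriptions. PIF8a had 11.2, 10.4 and 12.7 counts per count of PIF3 in the shading libraries and 11.5, 9.78 and 8.53 in the defoliation libraries, against 2.70, 2.94 and 2.92 in the control libraries. The control values were within a narrow range far below every treated library. PIF4 had 6.80, 5.26 and 7.66 counts per count of PIF3 in shading and 4.82, 4.80 and 2.93 in defoliation, against 1.54, 1.74 and 2.18 in control leaves. Here too no treated library overlapped a control library.

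Within the PIF1 pair, the ratio of PIF1a to PIF1b counts was 11.1, 4.66 and 23.5 in shading and 4.52, 3.54 and 4.74 in defoliation, against 3.72, 2.37 and 1.88 in control leaves. The shading ratios exceeded all control ratios, and the defoliation and control ratios overlapped. The log2 ratio of PIF7a to PIF7b (3.37 ± 1.73 in shading and 2.16 ± 0.40 in defoliation, against 1.49 ± 0.98 in control leaves) and that of PIF8a to PIF8b (7.51 ± 1.58 in shading and 7.59 ± 0.65 in defoliation, against 6.68 ± 0.44 in control leaves; SD, n = 3 each) overlapped between treated and control libraries.

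**Figure D5:**
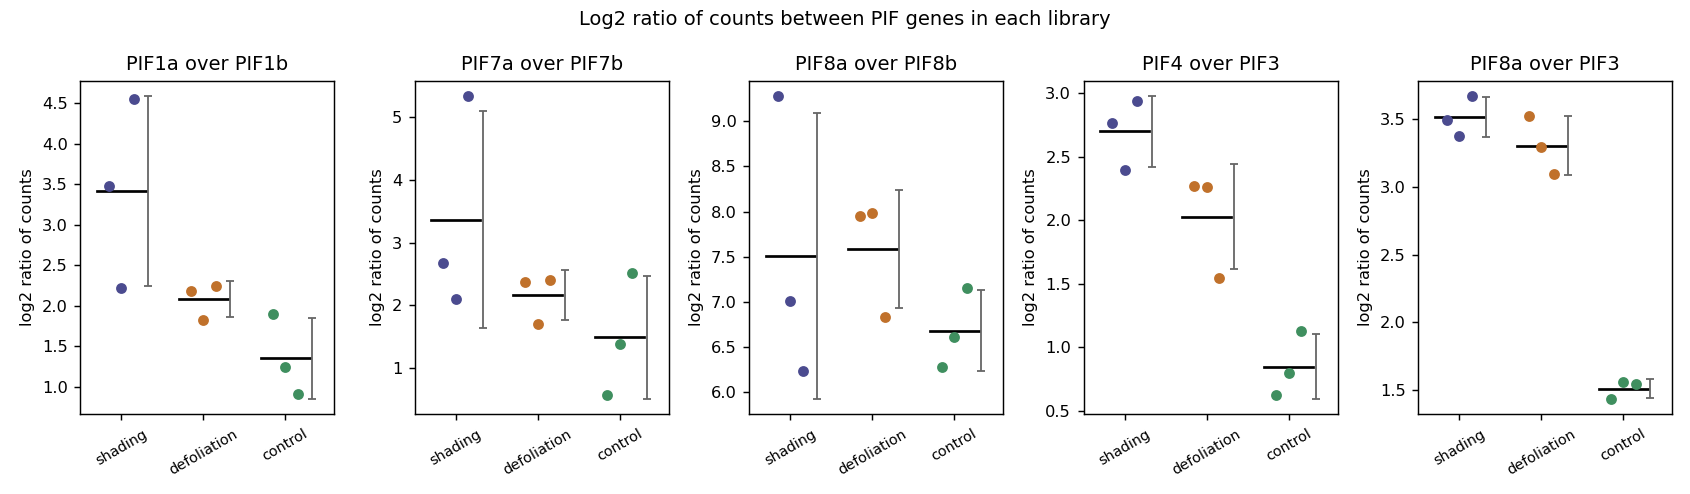
Log2 ratio of counts between pairs of PIF genes in each library (vertical axes, not from 0), with group means (black lines) and 1 SD (grey bars, n = 3). The ratio of PIF8a to PIF3 is 3.09 to 3.67 in treated libraries and 1.44 to 1.56 in control libraries.

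Setting shading against defoliation directly asks whether darkened neighbours and missing neighbours leave the remaining leaf with different PIF levels. No PIF gene passed in edgeR (0 of 8, where 0.0146% of all tested genes passed), and 2 of 8 had an unadjusted p below 0.05, as did 16.6% of all tested genes. These were PIF1a, with 11.4 ± 0.853 CPM in shading and 7.15 ± 0.579 CPM in defoliation (SD, n = 3 each), and PIF4, with 81.8 ± 10.8 CPM in shading and 62.9 ± 9.18 CPM in defoliation. For PIF1a the 3 shading libraries all lay above the 3 defoliation libraries, as they did for 10.4% of all tested genes. Its log2 fold change between the treatments was 0.67 ± 0.15 (SE, 95% interval 0.34 to 1.00; edgeR adjusted p = 0.120). DESeq2 called PIF1a higher in shading than in defoliation (log2 fold change 0.68, DESeq2 adjusted p = 0.00685), in a run that called 1014 genes where edgeR called 3. For PIF4 the log2 fold change was 0.38 ± 0.14 (SE, 95% interval 0.06 to 0.70; edgeR adjusted p = 0.233), and its libraries overlapped.

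For PIF3 the log2 fold change of shading over defoliation was -0.31 ± 0.20 (SE, 95% interval -0.74 to 0.13; edgeR adjusted p = 0.453), and the interval allows a level up to 1.67-fold lower in shading than in defoliation. For PIF8a the interval ran from -0.39 to 0.24 and for PIF7a from -0.53 to 0.70. The low-count genes PIF1b, PIF7b and PIF8b had intervals from -1.37 to 0.72, from -2.05 to 0.32 and from -1.21 to 1.91, which hold changes of 2-fold and more.

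Around the PIFs, 23 loci of light signalling were listed under names from published tomato nomenclature, which the files do not annotate. All 23 were tested. The lists were drawn up with earlier results of these data known, so counts within them are descriptions. Among 8 loci listed as photoreceptors, 3 fell and 0 rose after defoliation, and 0 fell and 1 rose under shading. Of all tested genes, 15.4% fell and 18.9% rose after defoliation, and 14.2% fell and 16.0% rose under shading, so the 1 rise under shading is near the share over all genes. The loci listed as phytochromes PHYB1 and PHYF, receptors of red light, fell after defoliation by 0.50 ± 0.15 and 0.48 ± 0.13 on the log2 scale (SE; edgeR adjusted p = 0.0277 and 0.0180). The locus listed as the blue-light receptor CRY1b fell by 0.35 ± 0.12 (SE; edgeR adjusted p = 0.0486). The locus listed as PHYE rose under shading to 62.6 ± 16.9 CPM, against 40.1 ± 2.76 CPM in control leaves (SD, n = 3 each), by 0.64 ± 0.18 on the log2 scale (SE; edgeR adjusted p = 0.0233). Each of these calls was lost in at least 1 analysis without a library. PHYB1 lost it when control replicate 1, control replicate 2, defoliation replicate 1 or defoliation replicate 3 was left out (log2 fold changes -0.44, -0.49, -0.50 and -0.40), PHYF when control replicate 1, defoliation replicate 1 or defoliation replicate 3 was (-0.44, -0.47 and -0.38), and PHYE when control replicate 1, control replicate 3 or shading replicate 3 was (0.58, 0.66 and 0.41). CRY1b kept it among these only without defoliation replicate 2 (-0.44; -0.36 to -0.27 where lost), and also lost it with RLE scaling (-0.35), with no filter (-0.34) and in a fit of the compared groups alone (-0.35).

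Among 8 loci listed as regulators that act with or on PIFs, 1 fell and 0 rose in each treatment, near the shares of all tested genes that fell (15.4% after defoliation and 14.2% under shading) and so no result about these loci as a list. After defoliation it was the locus listed as COP1, part of a ubiquitin ligase of light signalling, with 36.4 ± 1.08 CPM, against 53.9 ± 8.67 CPM in control leaves (SD, n = 3 each), a fall by 0.57 ± 0.15 on the log2 scale (SE; edgeR adjusted p = 0.0156). Its call was lost without control replicate 3 (-0.44) or defoliation replicate 1 (-0.54). Under shading it was a locus listed as a homologue of the clock gene TOC1, which fell by 0.69 ± 0.24 on the log2 scale (SE; edgeR adjusted p = 0.0481), whose call was lost without any 1 library other than shading replicate 1 (-0.76 to -0.52 where it was lost), with no filter (-0.69) and in a fit of the compared groups alone (-0.69). Loci listed as HY5, a light-response activator, and the DELLA protein PROCERA passed in neither treatment, with log2 fold changes of 0.07 and 0.26 under shading and -0.35 and -0.21 after defoliation.

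Among 7 loci from gene classes that PIFs bind in Arabidopsis or tomato, 3 rose and 0 fell after defoliation, and 4 rose and 0 fell under shading, where 18.9% and 16.0% of all tested genes rose. The list was drawn up with earlier results of these data known, so these counts are descriptions and no test of genes that PIFs bind. The list does not say whether a PIF raises or lowers a gene that it binds. A part of PIF levels in these rises was not tested. Most of the rises were of loci listed as homologues of a single enzyme, protochlorophyllide oxidoreductase, which serves a light-dependent step of chlorophyll synthesis. One of them, Solyc07g054210.3, stood at 524 ± 60.6 CPM in shading and 385 ± 36.7 CPM in defoliation, against 160 ± 25.1 CPM in control leaves (SD, n = 3 each). The log2 fold change of Solyc07g054210.3 was 1.71 ± 0.16 for shading (SE; edgeR adjusted p = 0.000271) and 1.26 ± 0.15 for defoliation (SE; edgeR adjusted p = 0.000546), and both calls held in all 18 alternative analyses. A further locus of this kind, Solyc10g006900.3, rose by 2.22 ± 0.30 on the log2 scale under shading and by 0.97 ± 0.29 after defoliation (SE; edgeR adjusted p = 0.00105 and 0.0277). The defoliation call was lost when control replicate 1, control replicate 3 or defoliation replicate 1 was left out (0.85, 0.90 and 0.82).

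The last locus listed as such an enzyme rose under shading to 110 ± 79.9 CPM, against 10.7 ± 8.37 CPM in control leaves (SD, n = 3 each), by 3.36 ± 0.86 on the log2 scale (SE; edgeR adjusted p = 0.0208). Without shading replicate 2 (2.71), control replicate 1 (3.17) or control replicate 3 (2.98) it no longer passed. The locus listed as GLK1, a chloroplast regulator, rose after defoliation (0.63 ± 0.22 SE, edgeR adjusted p = 0.0482), and that listed as CHLH, a subunit of the enzyme that inserts magnesium into chlorophyll precursors, rose under shading (0.68 ± 0.22 SE, edgeR adjusted p = 0.0405). In both cases treated and control libraries overlapped. GLK1 averaged 188 ± 30.1 CPM after defoliation, against 121 ± 36.9 CPM in control leaves (SD, n = 3 each). CHLH averaged 3450 ± 1194 CPM under shading, against 2154 ± 133 CPM in control leaves. GLK1 kept its call only without control replicate 1 (0.86) or defoliation replicate 1 (0.76) among analyses without a library, and CHLH only without defoliation replicate 3 (0.68) or shading replicate 1 (0.92). Where lost, the values were 0.42 to 0.65 for GLK1 and 0.42 to 0.76 for CHLH, and GLK1 also lost its call with RLE (0.63) or upper-quartile (0.57) scaling. In a fit of the compared groups alone neither passed (0.62 for GLK1 and 0.69 for CHLH), and CHLH did not pass in limma-voom (0.62, adjusted p = 0.0605). The locus listed as PSY1, phytoene synthase, did not pass (edgeR adjusted p = 0.0645 under shading and 0.0523 after defoliation). Its level was 221 ± 11.5 CPM in shading and 220 ± 6.0 CPM in defoliation (SD, n = 3 each). Control leaves held 278 ± 34.1 CPM (SD, n = 3). Every treated library of PSY1 lay below every control library, an order seen for 16.6% of all tested genes.

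Over all 23 listed loci the median log2 fold change was -0.04 for shading and -0.10 for defoliation, beside -0.02 for all tested genes in each. Between shading and defoliation 0 of 23 passed in edgeR, beside 0.0146% of all tested genes, with 8 of 23 at an unadjusted p below 0.05, beside 16.6% of all tested genes.

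The gene whose profile over the 9 libraries was most like that of a PIF was sought among 13829 other genes with a mean of at least 5 CPM, by the root mean square difference of log2 CPM after centring each gene. For PIF4 it was Solyc01g106940.3, with a difference of 0.06 on the log2 scale, where the median over all these genes was 0.45. For PIF3 it was Solyc04g006970.3, with a difference of 0.28, where the median was 1.07. As the smallest of 13829, each difference is bound to lie below its median. Differences also tend to be larger for a gene whose level varies more, so those of PIF3 and PIF4 are not compared. Solyc04g006970.3 stood at 45.7 ± 13.3 CPM in shading and 47.3 ± 6.93 CPM in defoliation, against 160 ± 18.6 CPM in control leaves (SD, n = 3 each). The nearest gene was Solyc12g088700.1 for PIF1a (0.11) and Solyc04g011440.4 for PIF1b (0.31). The files do not pair these identifiers with names. Within the family, the PIF nearest to PIF3 was PIF1b, at 0.63, and the PIF nearest to PIF4 was PIF1a, at 0.28.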

How the data were processed

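Deposited values are the authors' RSEM expected counts for each gene, already whole. The submitters' processing notes name Trim Galore, STAR, RSEM and DESeq2, and no source used here gives versions, genome build or annotation. The library kit does not mark strand, per the labels' protocols naming it, so overlapping and antisense genes cannot be told apart, and RSEM divides reads shared by similar genes, so counts of close PIF copies are uncertain. All 9 libraries (3 per group) entered one fit in edgeR 4.0.16 (R 4.3.3; TMM, filterByExpr, default quasi-likelihood F-test, robust), which tested 20480 of 23195 genes (88.3%). P-values were adjusted by Benjamini-Hochberg over all tested genes, and below 0.05 a gene was called. SE is the size of the log2 fold change divided by the square root of F. Floors of 3 counts and counting coefficients cover counting error only. Alternatives were DESeq2 1.42.0, limma-voom (limma 3.58.1), the newer quasi-likelihood method, other scalings and filters, fits of the compared groups alone, a replicate block and leaving out each library. The method was also run on simulated data with far fewer changed genes than were called against control, and no result given here rests on that run. The members and lists were chosen with earlier results of these data known. All 8 PIFs are named, and other loci are named from the lists where called. Also named are 3 that were not called (HY5, PROCERA and PSY1), chosen for their known roles after values were seen. Uncalled leaf markers and the other TOC1 homologue are given beside called loci of the same kind. For up to 4 called PIFs the gene most alike is named. Of the 8 PIFs and the listed loci, 0 identifiers matched the reference gene table.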

Additional observations from a re-analysis of the deposited data

How the results depend on the processing

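Of 432 PIF log2 fold changes recomputed under the alternatives, 406 kept their sign and their side of the threshold. Another 17 lost a call, 1 gained one (PIF1a between the treatments, with DESeq2) and 8 changed sign, all of them uncalled. Most of the 432 belong to results not called in the main fit, which had no call to lose. PIF1b lost its call in 7 of 18 alternatives after defoliation and in 2 of 18 under shading. PIF4 lost its call in 6 of 18 under shading, and PIF1a in 2 of 18 after defoliation. The sign of PIF7b after defoliation changed without control replicate 1 (0.073, with a range without 1 library of -0.68 to 0.073). For shading against defoliation, PIF7a and PIF8b changed sign with limma-voom (-0.0061 and -0.12), and the ranges without 1 library crossed 0 for PIF7a (-0.22 to 0.24), PIF8b (-0.31 to 0.95), PIF8a (-0.14 to 0.032) and PIF1b (-1.17 to 0.019). Without 1 library, the number of PIFs that fell ranged from 2 to 4 after defoliation and from 1 to 3 under shading; such analyses have fewer samples. DESeq2 called 1 PIF higher in shading than in defoliation, and 1014 genes in all, against 3 in edgeR; the cause was not tested. Without 1 library this count of all genes ranged from 0 to 5. With the replicate number as a block, edgeR called 6060 genes for defoliation and 5232 for shading against control and 0 between the treatments, and PIF1b after defoliation (adjusted p = 0.0550) and PIF4 under shading (adjusted p = 0.0614) were not called. Of the listed loci, PHYB1, CRY1b and GLK1 after defoliation (adjusted p = 0.0589, 0.0942 and 0.0834) and the TOC1 homologue and CHLH under shading (0.0848 and 0.0515) were not called with the block either. Same-numbered libraries of different groups correlated between -0.19 and 0.14 in their deviations from group means, and 4 of 9 libraries correlated best with their own number, so the numbers were not taken as pairs. PIF1b, PIF7b and PIF8b had as few as 8, 4 and 5 counts in a library and also the widest spread of the family, and how far depth limits them was not tested.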
